A study of Mus musculus with 4 samples.

Results

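The genes described here are 5 subunits of the GABA-A receptor, Gabra2, Gabra3, Gabra4, Gabra5 and Gabrb2, and 2 chloride cotransporters, Slc12a2 and Slc12a5. Their probes were found by the RefSeq transcript accession that the array assigns to each spot, and every probe of each gene was read on all 4 arrays. This gave 9 probes of 55681 and 7 genes of 20660 named genes, with 2 probes each for Gabra3 and Slc12a5 and 1 for each of the others. Gene expression was measured in the whole brain of C57BL/6J mouse offspring at postnatal day 1, after their dams had received 25 μL of fluid into the trachea in pregnancy. The Sham dams received the vehicle and the TiO2-H dams a suspension of titanium dioxide nanoparticles at 100 μg/mouse. The day of administration was gestational day 10.5 by the protocol and 14 by the titles of the samples. RNA of 2 offspring from each of 5 Sham dams or 6 TiO2-H dams was pooled by sex, which gave a male and a female pool for each exposure, 4 in all. Each pool was hybridized to 1 one-color array, so that a value is a mean over litters, the spread between litters or animals is not seen, and no test was possible within a sex.

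GABA-A receptors are chloride channels built from several subunits, and GABA opens them at inhibitory synapses and outside them. The alpha subunit in a receptor affects where it sits and how it responds to GABA and to benzodiazepines, and the make-up of alpha subunits changes as the brain matures. Whether an open channel depolarizes or inhibits a neuron depends on its chloride content. Slc12a2 (NKCC1) carries chloride into the cell and Slc12a5 (KCC2), a protein of neurons, carries it out, and the balance shifts toward export around and after birth in rodents.

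The brightness of a spot, its processed signal, is given below as a percentage of the 75th percentile of all non-control spots on the same array. Values for the 4 arrays are given with the Sham pools first and the male pool first within each exposure, by the labels. In that order the 75th percentile was 810 and 795 for Sham and 867 and 871 for TiO2-H, and 56.2% to 61.2% of spots were well above background. Probes differ in how strongly they bind, so that a level is compared between arrays for 1 probe and never between probes. Sex-linked RNAs went against the sex labels of the TiO2-H arrays for 6 of 6 probes of Xist, Ddx3y, Uty and Eif2s3y, for which reason they are called by their labels, as the array labelled TiO2-H male or labelled TiO2-H female. Both Sham arrays lay in row 1 of the slide and both TiO2-H arrays in row 2, so that exposure and position on the slide cannot be told apart. All 6 neuronal marker RNAs (Tubb3, Snap25, Syt1, Stmn2, Rbfox3 and Dcx) were well above background on all 4 arrays.

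All 9 probes of the 7 genes were well above background on all 4 arrays, with no spot marked as an outlier or saturated. By its brightest probe, each of the 5 receptor subunits was higher in the TiO2-H pools on average, by 0.052 to 0.21 on the log2 scale. In 4 of the 5, both TiO2-H arrays lay above both Sham arrays, an order that 28.9% of the 29409 probes well above background on all arrays also showed. For the cotransporters both differences were within 0.045 of 0 on the log2 scale. None passed the test: limma, with Benjamini-Hochberg adjustment over 35626 probes, gave adjusted p-values of 0.35 to 0.86 for the 9 probes, and called none of the 35626 (0%, lowest adjusted p 0.31), of which 4968 had an unadjusted p under 0.05.

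The 4 receptor subunits whose TiO2-H arrays lay above the Sham arrays lie on 3 chromosomes, and their upstream sequences are shown because they differ plainly in base composition. Each is the stretch of 250 bases before the start of transcription that lies farthest upstream in the RefSeq table for GRCm38.p6, 5′ to 3′, with CpG dinucleotides, the sites of DNA methylation, in capitals. The stretches are chr5:71095850-71096099 (minus strand) for Gabra2, chrX:72656920-72657169 (minus strand) for Gabra3, chr5:71658309-71658558 (minus strand) for Gabra4 and chr11:42420190-42420439 (plus strand) for Gabrb2.
Gabra2: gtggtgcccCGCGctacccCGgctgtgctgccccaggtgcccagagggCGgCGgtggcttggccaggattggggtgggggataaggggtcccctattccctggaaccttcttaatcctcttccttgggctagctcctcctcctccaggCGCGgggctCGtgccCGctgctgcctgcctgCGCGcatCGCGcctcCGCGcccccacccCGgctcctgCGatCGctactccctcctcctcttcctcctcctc
Gabra3: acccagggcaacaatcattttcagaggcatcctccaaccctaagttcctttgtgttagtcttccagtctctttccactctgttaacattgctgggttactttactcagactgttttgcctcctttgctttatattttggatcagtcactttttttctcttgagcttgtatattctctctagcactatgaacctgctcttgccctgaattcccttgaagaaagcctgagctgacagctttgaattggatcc
Gabra4: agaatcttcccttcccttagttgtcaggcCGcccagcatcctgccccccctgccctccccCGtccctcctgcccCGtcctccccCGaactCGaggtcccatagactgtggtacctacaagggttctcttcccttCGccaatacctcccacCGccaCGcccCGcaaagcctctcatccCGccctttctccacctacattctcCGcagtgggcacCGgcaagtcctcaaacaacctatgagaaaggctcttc
Gabrb2: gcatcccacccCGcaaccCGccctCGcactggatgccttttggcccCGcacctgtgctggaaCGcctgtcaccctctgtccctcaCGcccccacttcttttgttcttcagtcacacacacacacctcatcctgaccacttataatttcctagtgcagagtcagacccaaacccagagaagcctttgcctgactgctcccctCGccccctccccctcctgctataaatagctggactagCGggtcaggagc
The Gabra2 stretch held 18 CpG dinucleotides, more than 78.3% of the 32851 stretches in the table, and the Gabra4 and Gabrb2 stretches held 12 and 8. None was found in the Gabra3 stretch, and the median over all stretches was 6. The letters TATAAA, searched on both strands, were present for Gabra3 and Gabrb2 and in 12.4% of all stretches. CCAAT was present for Gabra2, Gabra3 and Gabra4 (33.8% of all), and GGGCGG for Gabra2, Gabra4 and Gabrb2 (32.7% of all). GCGNGGGCG, whose last letters can overlap GGGCGG, was present for Gabrb2 alone of the 4 (4.7% of all). These letters describe the sequence, and the arrays analysed here did not measure promoters.

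Gabra2 encodes an alpha subunit found in many forebrain neurons. Its probe read 46.0% and 49.4% of the 75th percentile in the Sham pools and 54.8% and 53.1% in the TiO2-H pools. Both TiO2-H arrays were thus above both Sham arrays, with the Sham male array the lowest. The difference on the log2 scale was 0.25 on the arrays labelled male and 0.10 on those labelled female, where the Sham female array already exceeded the Sham male array by 0.10. Over both pools it was 0.18 (SE 0.060, 95% interval -0.0039 to 0.36), with a limma p of 0.053 and an adjusted p of 0.36.

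Gabra3, an alpha subunit prominent in the immature cortex and in brainstem and thalamus, showed the same order with its bright probe. The values were 865% and 966% of the 75th percentile in the Sham pools and 1036% and 1066% in the TiO2-H pools. On the log2 scale the difference was 0.26 for the labelled males and 0.14 for the labelled females, and 0.20 over both pools (SE 0.076, limma p of 0.072, adjusted p of 0.38). It was 0.12 without Sham male and 0.28 without Sham female. The Sham female array exceeded the Sham male array by 0.16, which is more than the difference between the female arrays. For Gabra3 and Gabra2 the Sham male array was the lowest of the 4, so that a part of the larger difference on the male arrays lay between the Sham pools.

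Gabra4, an alpha subunit of extrasynaptic receptors in thalamus, striatum and hippocampus, was the most even between pools of 1 exposure. It read 58.5% and 59.3% in the Sham pools and 62.8% and 62.5% in the TiO2-H pools. The 2 exposures did not overlap, and the gap was small: 0.10 and 0.077 on the log2 scale for labelled males and females, and 0.089 over both (SE 0.041, limma p of 0.11, adjusted p of 0.42). Gabra5, an alpha subunit of extrasynaptic receptors in the hippocampus, read 247% and 234% in the Sham pools and 246% and 252% in the TiO2-H pools. Here the exposures overlapped, since the Sham male array lay between the TiO2-H arrays. The difference was -0.0033 on the labelled male arrays, 0.11 on the labelled female arrays and 0.052 over both pools (SE 0.052, 95% interval -0.11 to 0.21, adjusted p of 0.64 by limma), and 0.014 without Sham female and 0.090 without Sham male.

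Gabrb2 encodes the beta subunit that joins alpha and gamma subunits in the most common adult receptor. Its signal was 605% and 590% of the 75th percentile in the Sham pools and 685% and 693% in the TiO2-H pools. The exposures were apart by more than the pools of each exposure were from each other: Sham female differed from Sham male by -0.035 on the log2 scale, and TiO2-H female from TiO2-H male by 0.016. The difference between exposures was 0.18 for labelled males, 0.23 for labelled females and 0.21 over both (SE 0.043, 95% interval 0.075 to 0.34), or 1.15-fold. Gabrb2 was the 1 probe of the 9 with an unadjusted limma p under 0.05, at 0.014, as were 13.9% of all probes tested, and its adjusted p was 0.35. Over the alternative settings its unadjusted p ran from 0.0060 to 0.076 and its adjusted p from 0.16 to 0.53.

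**Figure D1:**
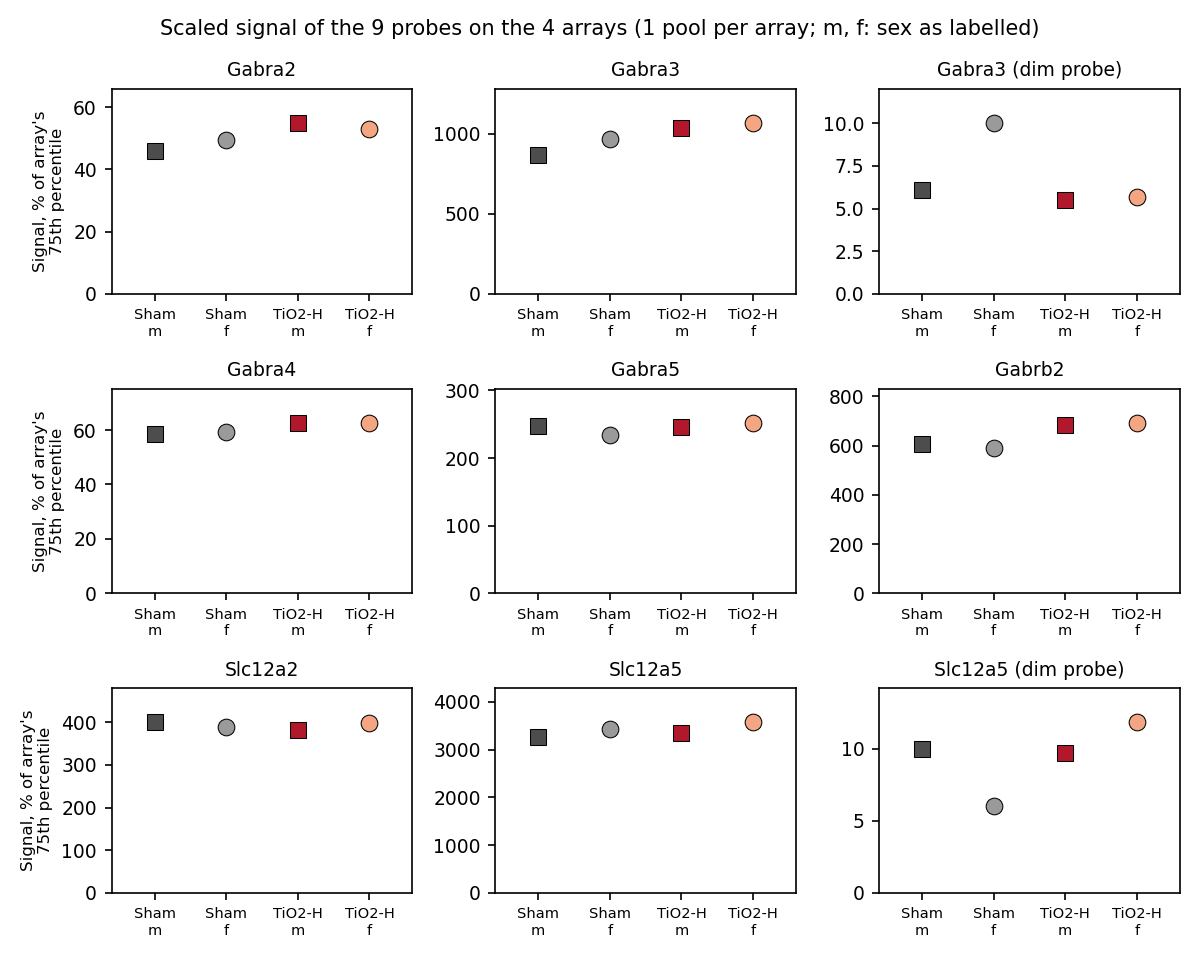
Scaled signal (percent of the array's 75th percentile, vertical axes from 0, each with its own range) of the 9 probes on the 4 arrays, 1 point per array. Both TiO2-H arrays lie above both Sham arrays for Gabra2, the bright probe of Gabra3, Gabra4 and Gabrb2, and the Sham female array stands apart for the dim probes of Gabra3 and Slc12a5.

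Slc12a2, the sodium, potassium and chloride importer, did not separate the exposures. Its probe read 401% and 390% of the 75th percentile in the Sham pools and 381% and 399% in the TiO2-H pools. The Sham male array was the highest and the array labelled TiO2-H male the lowest, with the female arrays between. On the log2 scale the difference was -0.072 for labelled males, 0.033 for labelled females and -0.019 over both pools (SE 0.050, 95% interval -0.17 to 0.13, adjusted p of 0.86 by limma). Without scaling the difference over both pools was 0.095, but the median of all probes then moved to 0.12 from 0.0056, so that Slc12a2 stayed below the median.

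Slc12a5, the potassium and chloride exporter, had a bright probe at 3276% and 3438% of the 75th percentile in the Sham pools and 3350% and 3577% in the TiO2-H pools. In each exposure the array labelled female was the higher one, and the exposures overlapped. The difference was 0.032 on the log2 scale for labelled males, 0.057 for labelled females and 0.045 over both pools (SE 0.061, 95% interval -0.14 to 0.23, adjusted p of 0.73 by limma). A 1.5-fold change in either direction lies outside the intervals of Slc12a2 and of this probe of Slc12a5.

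A change of 1.5-fold or 0.67-fold between 1 TiO2-H and 1 Sham array of the same labelled sex was counted as past the threshold. None of the 9 probes passed it on the arrays labelled male, against 7.37% of 33331 probes well above background on at least 1 array. On the arrays labelled female 2 of 9 passed it, 1 higher and 1 lower, against 5.96% of 34068 probes (2.65% higher and 3.31% lower). Of probes well above background on both arrays, as all 9 were, 3.23% passed it on the male and 2.82% on the female arrays. The 2 that passed were the dimmer probes of genes whose brighter probe did not pass, and both were near background.

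The dim probe of Gabra3 gave 49.6 and 79.6 in the Sham pools and 47.8 and 49.5 in the TiO2-H pools as processed signals. The dimmest spots called well above background on these arrays had signals of 23.3 to 31.7. The Sham female array was the high one and the other 3 were close together. The female comparison gave 0.57-fold, or -0.82 on the log2 scale, and the male comparison -0.15, while Sham female over Sham male was 0.71. Over both pools the difference was -0.48 (SE 0.28, limma p of 0.18, adjusted p of 0.48), opposite in sign to the 0.20 of the bright probe of the same gene. It was -0.13 without Sham female and -0.84 without Sham male.

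The dim probe of Slc12a5 gave processed signals of 81.1 and 47.6 in the Sham pools and 83.9 and 103 in the TiO2-H pools, and here the Sham female array was the low one. The female comparison gave 1.98-fold, or 0.98 on the log2 scale, and the male comparison -0.049, while Sham female over Sham male was -0.74. Both dim probes were also past the threshold between the 2 Sham arrays, which 6.32% of 32057 probes were, and 2.35% of those well above background on both. Pairing the TiO2-H arrays by their sex-linked RNAs instead of their labels left both past the threshold against Sham female. They were at -0.86 for Gabra3 and 0.69 for Slc12a5, where 6.42% of 33166 probes were past it, and 2.62% of those well above background on both arrays. Against Sham male, the array labelled TiO2-H female gave -0.10 and 0.24. Over both pools the dim probe of Slc12a5 was higher by 0.47 (SE 0.31, adjusted p of 0.52 by limma), and by 0.097 without Sham female and 0.84 without Sham male.

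Repeated spots of 1 probe measure the error within an array. Their median SD was 0.064 to 0.067 on the log2 scale for those of the 399 repeated probes that were well above background. It was 0.16 to 0.19 for 40 to 43 of these with signals of 40 to 110, the range of the dim probes. Each of the 9 probes had 1 spot. The scanner's own error for a log2 difference between 2 arrays was about 0.20 for the 7 bright probes and 0.28 to 0.37 for the dim ones in the comparisons plotted. Of 3169 probes with a signal like the dim probe of Gabra3, 4.64% were at 0.67-fold or lower on the arrays labelled female, and of 4123 like the dim probe of Slc12a5, 4.51% were at 1.5-fold or higher.

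**Figure D2:**
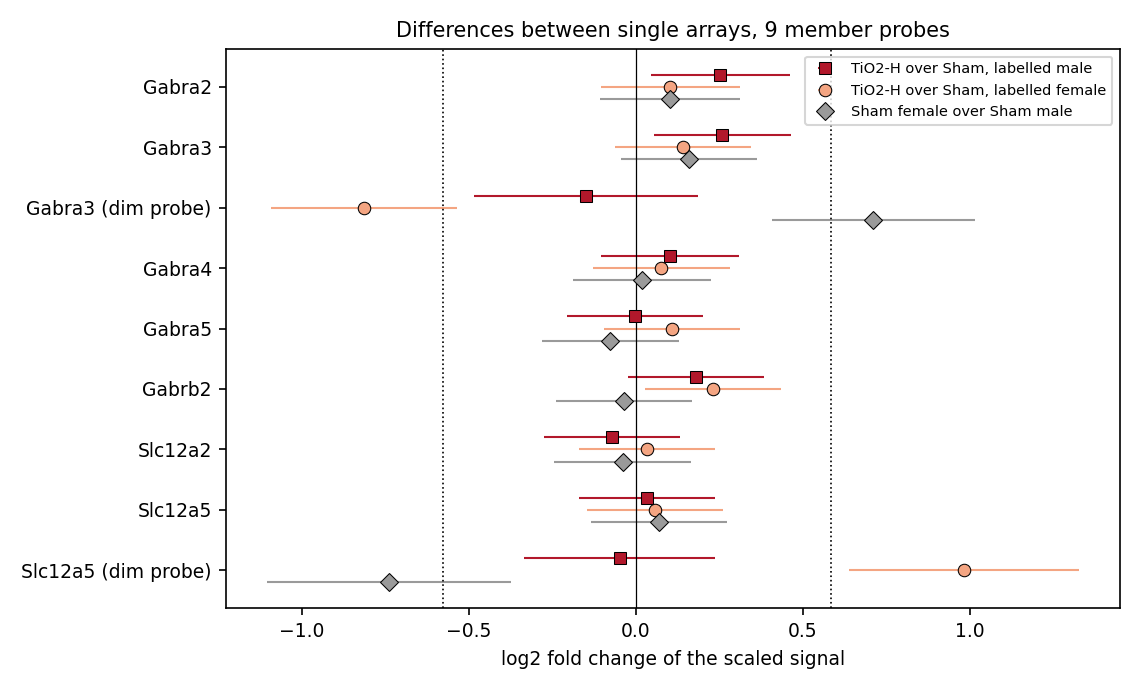
Log2 differences of the scaled signal between single arrays for the 9 probes, with bars of the scanner's error and dotted lines at 1.5-fold and 0.67-fold. Points past a dotted line belong to the dim probes of Gabra3 and Slc12a5, in the female comparison and, with the opposite sign, between the 2 Sham arrays.

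Of the 9 probes, 7 were higher and 2 lower in the TiO2-H pools, with a median of 0.089 on the log2 scale beside 0.0056 for all probes, whose robust SD was 0.14. On the arrays labelled male 5 were higher and 4 lower (median 0.032), and on those labelled female 8 were higher and 1 lower (median 0.10). The dim probe of Gabra3 was the 1 of 9 with both TiO2-H arrays below both Sham arrays, as were 25.8% of probes. RNA of the whole brain was measured, so that fewer cells of a type and less RNA per cell cannot be told apart.

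A list of 11 further subunits was read, each by its brightest probe. Of these, 6 were well above background on all 4 arrays, 5 of them higher in the TiO2-H pools and 1 lower, none past the fold threshold in either labelled sex and none past the adjusted test. For 4 of the 6 both TiO2-H arrays lay above both Sham arrays, beside the 28.9% of all probes given above. Gabra6, an alpha subunit of mature cerebellar granule cells, Gabre, Gabrp, Gabrq and Gabrr3 were not well above background on any array. Together with the 5 described above, 11 of 16 subunits were well above background on all 4 arrays, 10 of the 11 were higher (median over the 11 of 0.094) and 8 had no overlap in that direction, beside 51.6% and 28.9% of all probes. Without scaling every difference rises by the same amount (the median of all probes from 0.0056 to 0.12), so that none of the 10 could turn lower. The 10 were also higher with quantile normalization, and 9 of them with normexp background correction. The exception was Gabrd, the delta subunit of extrasynaptic receptors, whose difference was 0.020 and changed sign with normexp.

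Gabrb1, a beta subunit, had the largest difference of these subunits. Its processed signals were 988 and 941 in the Sham pools and 1280 and 1300 in the TiO2-H pools, a difference of 0.31 on the log2 scale (SE 0.044, limma p of 0.0048, adjusted p of 0.35). Gabrg3, a gamma subunit, was higher by 0.27 (limma p of 0.067, adjusted p of 0.37) and by 0.037 with its other probe, Gabrg1 by 0.094 and Gabrr1 by 0.066. Gabrr2, a rho subunit best known from the retina, was lower by 0.18 (adjusted p of 0.43), with both TiO2-H arrays below both Sham arrays.

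Many subunit genes lie in clusters. On chromosome 5 the order is Gabrg1, Gabra2, Gabra4 and Gabrb1, with 1 other coding gene between Gabra2 and Gabra4, and all 4 had both TiO2-H arrays above both Sham arrays, as 28.9% of all probes had. On chromosome 11 Gabra6 lies beside Gabrb2, and on chromosome 7 Gabrg3, which also had no overlap, lies beside Gabra5, which did overlap. Gabra3 lies on chromosome X beside Gabrq.

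**Figure D3:**
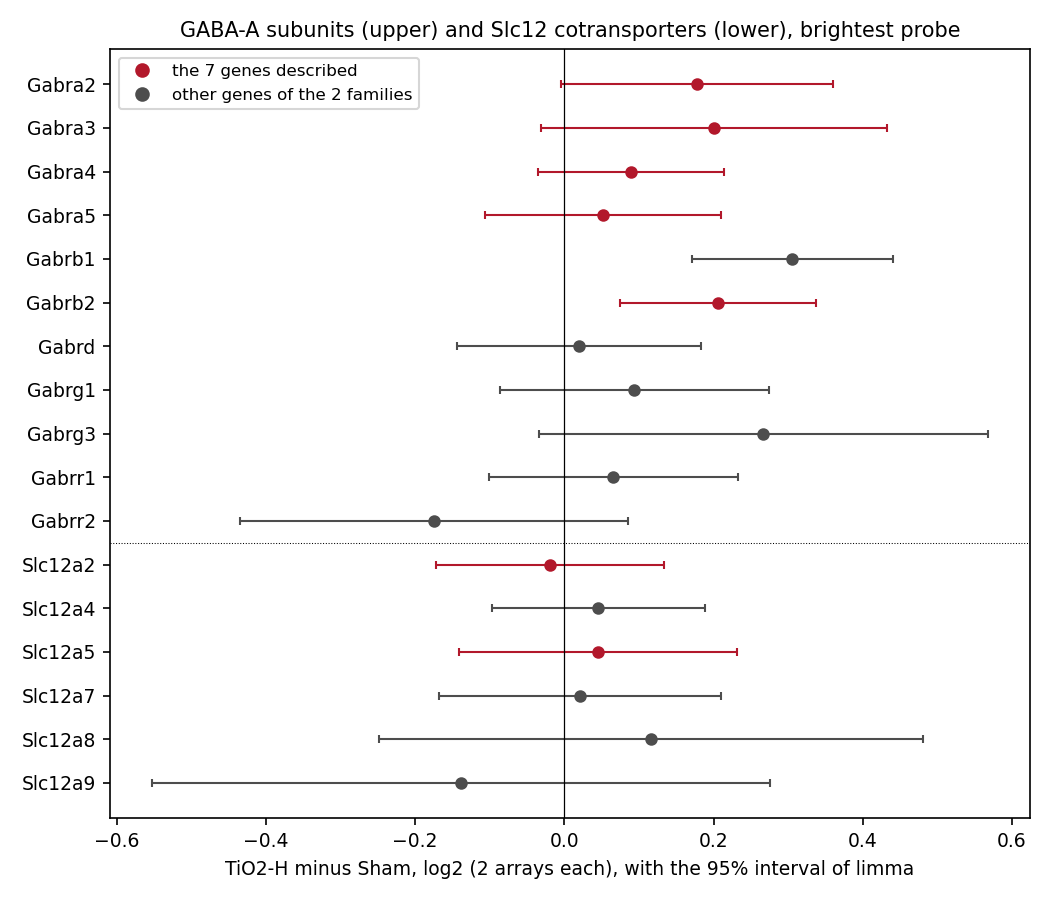
Difference between the 2 TiO2-H and the 2 Sham arrays (log2, horizontal axis) with the 95% interval of limma, for the listed GABA-A subunits and Slc12 cotransporters that were well above background on all 4 arrays. The intervals of Gabrb2 and Gabrb1 lie above 0 before adjustment for the number of probes, and no gene passes after it.

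Among 6 other cation and chloride cotransporters, Slc12a1 and Slc12a3, both of the kidney, were not well above background on any array. Slc12a4, a potassium and chloride exporter of most tissues, was higher by 0.046 on the log2 scale, Slc12a7 by 0.021 and Slc12a8 by 0.12, and Slc12a9 was lower by 0.14. These values are those of the brightest probes, and the other probe of Slc12a8 was lower by 0.13. The adjusted p-values of these 4 brightest probes by limma were 0.64 to 0.88. The TiO2-H and Sham arrays overlapped for all but Slc12a4.

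The kinases and other proteins known to regulate these cotransporters formed a list of 9 genes, 8 of them with a probe. All 8 were higher in the TiO2-H pools, with a median of 0.11 on the log2 scale, and 7 did not overlap, beside 51.6% and 28.9% of all probes, none past the adjusted test. With quantile normalization and with normexp they were higher too. Without scaling every difference rises by the same amount, so that none of the 8 could turn lower. Stk39 (SPAK), which phosphorylates both Slc12a2 and Slc12a5, was higher by 0.10. Wnk1, the kinase above it, was higher by 0.12 with its brightest probe and by 0.036 with its other probe. By brightest probe the largest difference was that of Cab39l, a partner of SPAK, with signals of 1283 and 1219 in the Sham pools and 1669 and 1585 in the TiO2-H pools, or 0.26. Of the 15 probes of the list tested by limma, 2 had an unadjusted p under 0.05, both higher, beside 8.56% of all probes.

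Among 8 genes of GABA-B receptors and inhibitory synapses, by their brightest probes, 2 were higher and 6 lower, with a median of -0.047. Gphn, the scaffold under inhibitory synapses, had the largest of these differences, higher by 0.086. Gabbr1 and Gabbr2, the GABA-B receptor subunits, had no single direction: the 3 probes of Gabbr1 gave -0.059, -0.019 and 0.064, brightest probe first, and those of Gabbr2 gave -0.011, 0.14 and 0.15. Of 5 other chloride and bicarbonate carriers, 3 were higher and 2 lower (median 0.030), and by brightest probe the largest difference was that of Clcn2, a chloride channel, at -0.13. Without scaling all 8 genes of the GABA-B list were higher, with 2 of them above the median of all probes, as with scaling, and of the carriers Slc4a10 turned from lower to higher.

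The members with the widest range over the 4 arrays by their brightest probe, Gabra3, Gabra2 and Gabrb2, were set beside 14630 genes by the distance between their log2 profiles over the 4 arrays, each centered on its mean. The nearest to Gabra3 were Taok1 (distance 0.0074), Dock9 (0.0089) and Dok7 (0.015). The nearest to Gabra2 were Clip1 (0.0097), Ptpn4 (0.011) and Ctf1 (0.012), and to Gabrb2 Olig1 (0.011), Agps (0.011) and Eif2s1 (0.013). With 4 arrays many profiles are alike, and the distances are a description.

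Markers of the cell types in the brain were read beside these genes, each by its brightest probe. They are given as signals summed over each list in multiples of the 75th percentile. Such a sum follows the brightest probes of its list, and it is compared between arrays and not between lists. Neuronal markers summed to 364 and 368 in the Sham pools and 362 and 379 in the TiO2-H pools, with 3 of 6 higher. Erythroid markers were lower in the TiO2-H pools, at 62.5 and 60.1 against 51.5 and 51.8, a sum made almost wholly of Hba-a1. Of the 4 erythroid genes 2 were well above background on all arrays, Hba-a1 and Alas2. Both were lower, by 0.25 and 0.17 on the log2 scale, with Alas2 at -0.034 on the arrays labelled female. Meningeal markers were higher for 5 of 5 (23.1 to 23.6 in Sham and 24.8 to 25.4 in TiO2-H), microglial markers for 3 of 3 (11.4 to 11.6 and 12.6 to 12.7) and endothelial markers for 4 of 4 (10.2 to 10.5 and 11.3 to 11.4). Of all probes 51.6% were higher. The microglial marker Csf1r was at 0.15 on the log2 scale with its brightest probe, and its other probes gave 0.0085 and -0.053. The exposures overlapped for the endothelial markers Pecam1 and Slc2a1, which were lower on the arrays labelled female (-0.054 and -0.11). Oligodendrocyte lineage markers, 3 of 4 of them higher, summed to 12.5 to 12.6 and 13.6 to 13.9. Markers of astrocytes and radial glia overlapped (205 to 214 and 212 to 219, with 2 of 4 higher). Choroid plexus markers, a tissue that also holds Slc12a2, were 86.8 to 89.2 in Sham and 84.4 to 85.6 in TiO2-H, with 4 of 6 lower. Without scaling, where every difference rises by the same amount, all markers of neurons, both glial lists and choroid plexus were higher. The meningeal, microglial and endothelial markers, already higher, could not turn lower there, and Hba-a1 and Alas2 stayed lower. The part of these cell types in the differences above was not tested.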

How the data were processed

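Brain RNA of 4 pools was measured on 4 one-color Agilent arrays (62976 spots, 59305 of them non-control). The authors deposited the intensity of each spot from Feature Extraction (version 10.10.1.1 per the submitters' processing notes), which corrects the background, and a table that held the same processed intensity. Gene names came from the transcript accessions through a RefSeq table for GRCm38.p6, which named 98.0% of the NM and NR accessions. Upstream sequences came from a RefSeq promoter table of the same assembly.

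Each processed signal was divided by the 75th percentile of the non-control spots of its array and taken to log2. Outlier spots were left out and spots of 1 probe averaged. A probe was compared where at least 1 array read it well above background, and on the other arrays it was set to at least the lowest signal well above background there. Thresholds were 1.5-fold and 0.67-fold. Probes so kept in at least 1 labelled sex were tested with limma 3.58.1 in R 4.3.3, 2 TiO2-H against 2 Sham arrays, with no term for sex, which takes pools of both sexes as replicates, so that p-values measure the spread between pools. An exact permutation test of 2 against 2 arrays could give no two-sided p below 0.33 and was not used. The 4 arrays limit the precision. On simulated data limma recovered 100% of 200 probes changed 3-fold among 35626 and called 0.025% of the others. The simulation gave every probe the same SD, the median SD between the Sham arrays. In the data the spread differs between probes, with an SE of 0.041 for Gabra4 and 0.31 for the dim probe of Slc12a5. The recovery of 3-fold changes in these data was thus not measured. A 3-fold change is far larger than, for example, the 1.15-fold of Gabrb2 over both pools. The recovery therefore does not give the power of the test for differences of that size, which was not simulated. Other steps used Python 3.11.15, numpy 2.4.6, pandas 2.3.3 and matplotlib 3.10.9.

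The members, lists and tests were chosen with earlier results of these data known. All members were named. The other subunits and Slc12 genes were named by their brightest probe, and of each remaining list the gene with the largest difference and any past the threshold. For the 3 members with the widest range, the 3 genes with the nearest profiles were named. Some further genes of known role (Gabbr1, Gabbr2, Stk39 and Wnk1) were added after their values were seen. Some genes of the lists are not reported here and enter no list count. Alternatives were no scaling, quantile normalization, normexp with an offset of 50 on the median signals, the deposited table, both filters on dim probes, no floor, outlier spots kept, TiO2-H arrays exchanged, 2-fold and 0.5-fold, the brightest probe, sex as a term, and each array left out.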

Additional observations from a re-analysis of the deposited data

Results flagged for a closer look

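For 3 of the 9 probes the arrays labelled male and those labelled female moved in opposite directions between Sham and TiO2-H. The difference between the sexes was not tested, since each sex had 1 array per exposure. For Gabra5 the log2 difference was -0.0033 in the labelled males and 0.11 in the labelled females. Slc12a2 had -0.072 and 0.033. The dim probe of Slc12a5 had -0.049 and 0.98, with the Sham female array the lowest of the 4. The scanner's error of a log2 difference was 0.20 for Gabra5 and Slc12a2. With the TiO2-H arrays exchanged, the pairing that the sex-linked RNAs give, no probe of these 3 moved in opposite directions. Against Sham male and Sham female the differences were 0.031 and 0.073 for Gabra5 and -0.0063 and -0.032 for Slc12a2. For the dim probe of Slc12a5 they were 0.24 and 0.69. The bright probe of Slc12a5 moved in opposite directions in that pairing, by 0.13 against Sham male and -0.037 against Sham female.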

How the results depend on the processing

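No paired analysis was possible by replicate number because each group holds 1 array. A limma term for sex, which pairs the arrays by sex as labelled or exchanged within TiO2-H, left 3200 or 3096 of all probes with an unadjusted p under 0.05, against 4968 without it. No alternative gave a member an adjusted limma p under 0.05. The count of member probes past the fold threshold on the arrays labelled female fell from 2 to 0 with normexp, with 2-fold and 0.5-fold thresholds, with the brightest probe of each accession, and without the dim probes of Gabra3 and Slc12a5, the last chosen after the data were seen. The last pair leave fewer probes. At 1.98-fold and 0.57-fold the 2 probes fall short of the 2-fold and 0.5-fold thresholds. The cause with normexp was not tested. The count of probes of the other pathway genes past it rose from 0 to 1 with quantile normalization and with no floor. The count of member probes with an unadjusted limma p under 0.05 was 1, beside 13.9% of all probes. It became 2 with normexp (17.5% of all probes), with the brightest probes (14.7%) and with probes well above background on every array (18.2%). Without scaling, where every difference rises by the same amount, it was 4, beside 23.3% of all probes. Leaving out each array gave 0 to 2: it was 2 without Sham male and 0 without the array labelled TiO2-H male or TiO2-H female. Of the other pathway genes 4 probes had an unadjusted p under 0.05, and 2 with no filter or with sex as a term in either form, 7 with probes well above background on every array, 20 without scaling, and 1 to 3 with each array left out (3 without Sham male, 1 without the array labelled TiO2-H male and 2 without either other array). Of the other pathway genes the main setting tested 8 GABA-A, 14 GABA-B list, 5 cotransporter, 15 regulator and 8 carrier probes. Beside them, 13.9% of all probes had an unadjusted limma p under 0.05 in that setting. The share of all probes was 5.36% with no filter and 8.98% or 8.69% with sex as a term. It was 18.2% with probes well above background on every array and 23.3% without scaling, where every difference rises by the same amount. The difference of Slc12a2 over both pools changed sign without scaling (0.095) and with 1 array left out. There it ran from -0.052 without the array labelled TiO2-H female to 0.00068 without Sham male and 0.014 without the array labelled TiO2-H male. The bright probe of Slc12a5 ran from -0.0025 without the array labelled TiO2-H female to 0.092 without the array labelled TiO2-H male, and with normexp its dim probe gave -0.0019. With each array left out, the differences of the other probes kept their sign and ran from 0.12 to 0.28 for the bright probe of Gabra3, 0.014 to 0.090 for Gabra5, -0.84 to -0.13 for the dim probe of Gabra3 and 0.097 to 0.84 for that of Slc12a5, each lowest or highest without a Sham array. Of 133 values for the 9 probes over both pools, 128 kept their sign and their side of the threshold. Many of these could not differ. The deposited table, both filters, no floor, outlier spots kept, the brightest probe and a sex term gave the same difference as the main setting. With all 4 arrays, no setting gave any probe an adjusted p under 0.05. The 128 values are therefore no measure of robustness. Signals near background limit the dim probes of Gabra3 and Slc12a5.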
